A study of Mus musculus with 9 samples.

Results

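The genes of the proteasome and of its regulators were followed in mouse liver on 9 one-colour Agilent arrays. Members were all genes whose array name began with Psma, Psmb, Psmc, Psmd, Psme, Psmf or Psmg and a digit, which gave 49 of 37074 gene names and 94 probes. They were 8 core alpha, 7 core beta and 3 immunoproteasome genes, Psmb11 of the thymus, 6 cap ATPase and 11 cap non-ATPase genes, 7 assembly chaperones, 5 activator or inhibitor genes and Psmc3ip, which shares the name but encodes a protein of meiotic recombination. No probe carried the name of the activator gene Psme2, so that only its copy Psme2b was read.

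The proteasome degrades proteins that carry ubiquitin. Its core particle is a barrel of stacked rings, the outer ones of alpha subunits, which gate the entry, and the inner ones of beta subunits, of which Psmb5, Psmb6 and Psmb7 encode the proteolytic sites. The cap opens the gate. Its ATPase ring, encoded by the Psmc genes, unfolds the substrate, and its non-ATPase subunits, encoded by most Psmd genes, bind ubiquitin, remove it and hold the cap together. Under interferon the proteolytic beta subunits are replaced by Psmb8, Psmb9 and Psmb10, which makes the immunoproteasome. Other activators, encoded by the Psme genes, dock on the core in place of the cap. In hepatocytes, which make and renew large amounts of protein, the proteasome is a main route of protein breakdown.

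The livers came from male C57BL/6N mice injected intravenously with a hepatocyte-specific AAV. AAV-V mice carried an empty vector and AAV-GP73 mice a vector for mouse GP73, both on a regular diet, and AAV-V HFD mice carried the empty vector and were fed a high-fat diet. Each group had 3 samples, with 12 months as the labelled age. The published description counts time from the injection and is not uniform on how long the HFD lasted. The labels do not say if each RNA came from a single animal, so that p-values measure the spread between these samples. The probe of Golm1, the gene of GP73, reached detection on 0 of 9 arrays, so that it checks nothing about the groups. One slide held the arrays of both groups on the regular diet and a different slide those of the HFD group, and diet and slide cannot be told apart.

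The AAV-V arrays stood apart from the other 6. Between 10.2% and 10.75% of their spots were well above background, against 13.8% to 18.4% on the other arrays, and their median signal over the 2666 probes detected on all 9 arrays was 33.1 to 38.7, against 76.4 to 129. The log2 mean of the added spike-in controls overlapped between the groups, at 10.38 to 10.92 on the AAV-V arrays and 10.42 to 10.87 on the others. Levels are given below as the log2 processed signal of the brightest probe of a gene, after each array was shifted to the same 75th percentile of these 2666 probes. Genes passing an adjusted p of 0.05 in limma with a difference of 2-fold or more were called. Over the 5761 genes tested, the median log2 fold change was 0.60 for AAV-GP73 against AAV-V and 0.37 for AAV-V HFD against AAV-V, and relative changes below are log2 fold changes minus that median. In whole liver, fewer cells of a type and less RNA per cell cannot be told apart.

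Most proteasome genes were higher in AAV-GP73 than in AAV-V livers, and in AAV-V HFD livers as well. Of the 12 members well above background on all 9 arrays, 9 were called higher in AAV-GP73, where 15.9% of the 2426 genes detected in that way were called higher, and 0 were called lower, where 32.6% were. In AAV-V HFD, 8 of the 12 were called higher (11.4% of those genes) and 0 lower (30.2%). Their median log2 fold change was 1.75 in AAV-GP73 and 1.32 with the HFD. The members that were not called in either comparison were Psmd1, Psme2b and Psme3, and Psma4 was called in AAV-GP73 but not in AAV-V HFD. Between AAV-GP73 and AAV-V HFD 1 of the 12, Psma4, was called higher (1.03% of those genes) and 0 lower (0.495%). Both comparisons share the AAV-V arrays, so that neither is a check of the other.

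Of all 49 members, 39 were tested, since their probe was well above background on every array of at least 1 group. The 10 others were the core genes Psma8 and Psmb2, Psmb11, the chaperones Psmd5, Psmd9, Psmd10, Psmg3 and Psmg4, the inhibitor gene Psmf1, and Psmc3ip. In AAV-GP73, 27 of the 39 were called higher, against 33.2% of all genes tested, and Psmg2 was called lower, against 19.4%. In AAV-V HFD, 26 were called higher (24.8%) and Psmc4 lower (18.2%). Members could enter through the group where they are bright, which favours those that differ. Of the 39, 21 (53.8%) were detected on no AAV-V array (not well above background), against 37.8% of all genes tested. The counts of called members are therefore a description. For these 21 the size of a rise is not known. A least fold change, computed against the dimmest signal that the AAV-V arrays could detect, exceeded 1 for 16 of them in AAV-GP73 (1.01 to 3.90, median 1.95) and for 13 in AAV-V HFD (1.01 to 3.11, median 1.86). The median relative change of the 39, which rests in part on fitted sizes of these 21, was 1.08 and 1.06, and 34 of them lay above the median of all genes tested in each comparison.

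**Figure D1:**
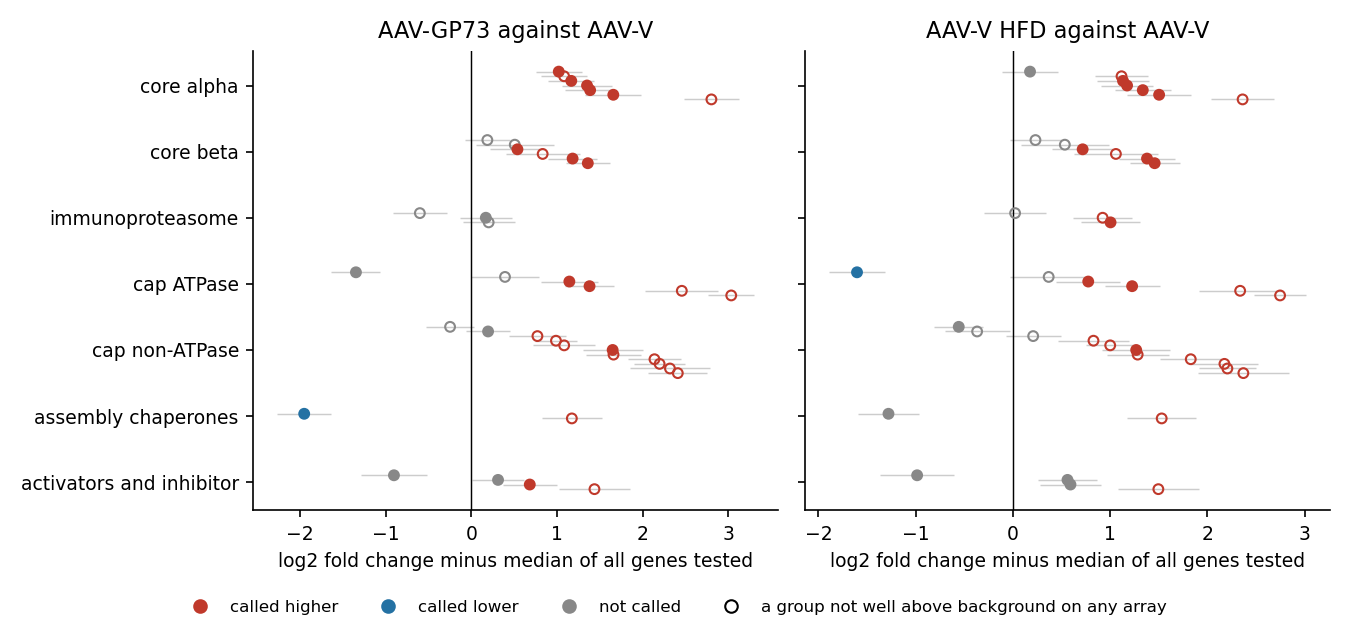
Change of each tested member by class, as log2 fold change minus the median of all genes tested, with its standard error (bars). Red points were called higher, blue points lower and grey points not called, and open points mark members that no array of 1 of the groups detected, whose size is not known. Core and cap subunits lie mostly to the right of 0 in both comparisons, and the immunoproteasome genes lie nearer to 0 in AAV-GP73.

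The calls depended on the processing. With normexp background correction, an offset of 50 and quantile normalization, the count fell to 2 members in AAV-GP73 (Psma4 and Psmc3), against 3.28% of all genes. In AAV-V HFD the count fell to 0, against 1.94%. The offset exceeds the mean signal in the brighter group for 14 of the 27 and 16 of the 26 members called, whose changes it shrinks by construction. Against the median over all genes tested, 33 and 32 of the 39 were still on the higher side. With the values deposited by the authors, 28 and 27 members were called higher.

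The difference between probes at the 3′ and the 5′ end of a transcript moved with the groups. For 10 members at least 2 probes more than 60 bases apart along the genome were tested, and for 10 of 10 the probe nearest to the 3′ end had a higher log2 fold change than the probe nearest to the 5′ end, in both comparisons against AAV-V. The difference between these probes had a median of 1.77 log2 units in AAV-GP73 and 1.79 with the HFD. Only 1 of the 10, Psme2b, had both probes well above background on all 9 arrays. These sizes therefore rest in part on signals below detection and are not known. Over all 626 genes with such probes the 3′ probe had the higher change in 72.7% and 74.6%, with medians of 0.56 and 0.55, and between AAV-GP73 and AAV-V HFD in 51%, with a median of 0.01. In 146 of these genes both probes were well above background on all 9 arrays. There the shares were 66.4% and 72.6% against AAV-V, with medians of 0.17 and 0.20. On single arrays the median log2 signal of the 3′ minus the 5′ probe over the 626 genes was 0.01 to 0.23 on the AAV-V arrays, 0.79 to 0.92 on the AAV-GP73 arrays and 0.86 to 0.91 on the AAV-V HFD arrays. The AAV-V arrays were thus lower than all others in this measure, and restricted to the 146 genes with both probes well above background on all 9 arrays they were lower too, at 0.78 to 0.90 against 1.09 to 1.27. The part of this shift in the changes of the members was not tested. Of the 10 members, 9 were called higher by the 3′ probe and 4 by the 5′ probe in each comparison, where over the 626 genes the shares were 51.9% and 26.4% in AAV-GP73 and 43.3% and 17.1% with the HFD.

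**Figure D2:**
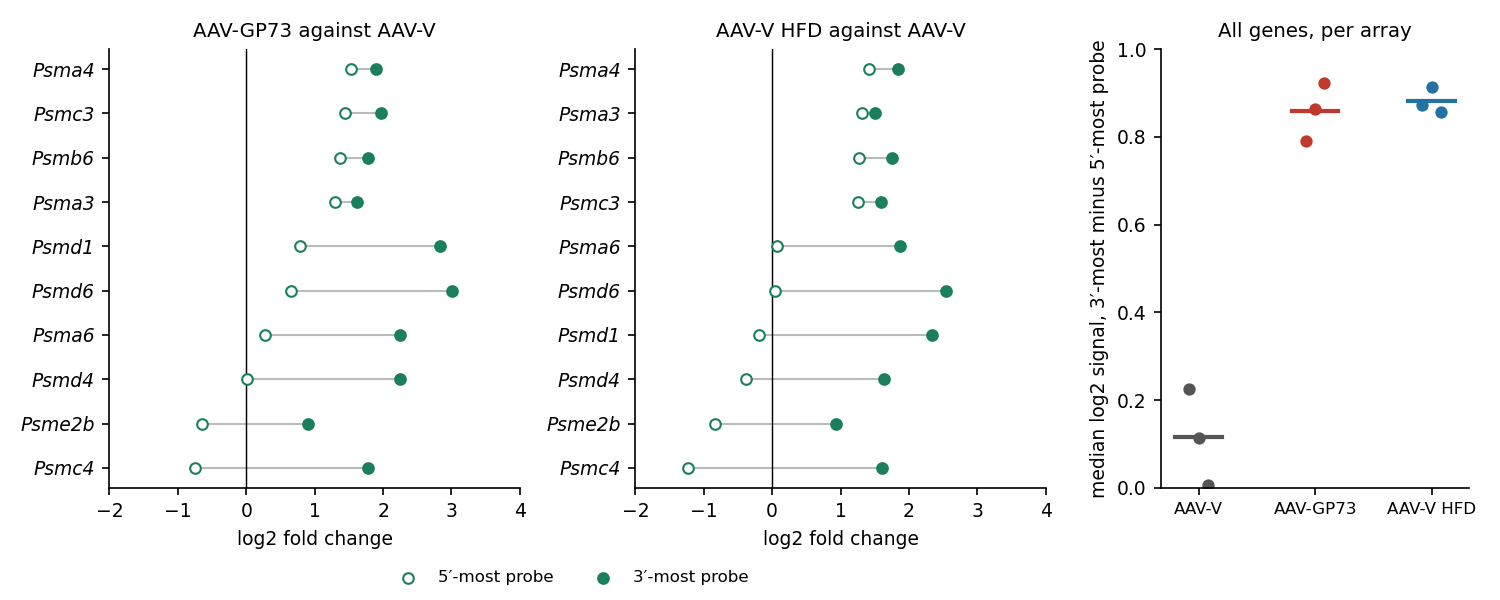
Left and middle, log2 fold change of the 5′-most (open) and the 3′-most probe (filled) of the 10 members with probes at both places. Right, the median over 626 genes of the log2 signal of the 3′-most minus the 5′-most probe, for each array (points) with the group mean (lines). The filled points lie to the right of the open ones for all 10 members, and the 3 AAV-V arrays lie below the other 6.

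Psma6, Psmd1, Psmd4 and Psmc4 are shown with the first 30 of the 60 bases of both probes, since for these genes the choice of probe decided the call. Psma4 is shown with the probe that separated AAV-GP73 from AAV-V HFD and the one that did not. Places are those of mm9 in the array files, a place of more than 60 bases spans an intron, and each sequence reads 5′ to 3′ along the transcript.
Psma6, 5′ probe, chr12:56511127-56511186, + strand: ccaggtacagagggcacgctatgaggcagc
Psma6, 3′ probe, chr12:56519322-56519381, + strand: atgtgtttggtaacaacaaactgacatcat
Psmd1, 5′ probe, chr1:88027281-88029323, + strand: ccaaaagaaaaagaaaaggaaaaggtttcc
Psmd1, 3′ probe, chr1:88035777-88035836, + strand: ccaagtctttggttaagaagatatacgact
Psmd4, 5′ probe, chr3:94837931-94838529, - strand: gagtttggagtagatcccagtgctgatcct
Psmd4, 3′ probe, chr3:94836627-94836686, - strand: ttggatagaggcttagatgtgctctgctgc
Psmc4, 5′ probe, chr7:28835007-28835066, - strand: cgggctgcactgaggccggcttggtcacta
Psmc4, 3′ probe, chr7:28827132-28827373, - strand: gtcgacctggaagactatgtggcccgtcca
Psma4, probe that separated the groups, chr9:54804681-54804740, + strand: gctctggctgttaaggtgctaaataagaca
Psma4, 3′ probe, chr9:54805728-54805787, + strand: ctgaattgggtccatgtttgtccagttgga

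All 7 tested alpha subunits of the core were called higher in AAV-GP73 and 6 with the HFD, against 33.2% and 24.8% of all genes tested. Of the 7, Psma1 and Psma5 were detected on no AAV-V array and entered through the other groups. Psma3, a bright alpha subunit, read 5.15, 5.15 and 4.76 on the AAV-V arrays, 6.32, 6.77 and 6.82 on the AAV-GP73 arrays and 6.38, 6.49 and 6.69 on the AAV-V HFD arrays. Both groups lay above AAV-V without overlap and overlapped each other, and the log2 fold changes against AAV-V were 1.62 ± 0.27 (SE, n = 3, adjusted p = 0.000395) and 1.50 ± 0.27 (SE, n = 3, adjusted p = 0.00113). Its probe nearer to the 5′ end, not detected in AAV-V, was called higher as well, by at least 1.40-fold and 1.41-fold. Psma5 read 1.41, 2.55 and 2.26 on the AAV-V arrays, where it was not well above background, 5.26, 5.48 and 5.67 in AAV-GP73 and 4.54, 4.95 and 4.92 with the HFD. Its least change was 3.06-fold in AAV-GP73 (adjusted p = 3.81e-05) and 1.93-fold in AAV-V HFD (adjusted p = 0.00023), and its single probe gives no second position.

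Psma4 was the only member called between AAV-GP73 and AAV-V HFD, where 1.96% of all genes tested were called higher and 0.555% lower. Its brightest probe read 5.40, 4.79 and 5.80 on the AAV-V arrays, 7.30, 7.32 and 7.21 in AAV-GP73 and 5.78, 5.86 and 5.99 with the HFD. AAV-GP73 lay above both other groups, which overlapped, and the log2 difference from AAV-V HFD was 1.40 ± 0.29 (SE, n = 3, adjusted p = 0.0302). The probe about 1 kilobase nearer to the 3′ end read 4.68, 4.69 and 4.54 in AAV-V, 5.98, 6.91 and 6.70 in AAV-GP73 and 6.26, 6.71 and 6.47 with the HFD. On that probe both groups rose against AAV-V, by 1.89 and 1.84, and overlapped each other, with a difference of 0.05 (adjusted p = 0.952). The 2 further probes of Psma4 differed between AAV-GP73 and AAV-V HFD by 0.41 and 0.11, and neither was called. The call was lost with quantile normalization, with the values deposited by the authors and when any single AAV-GP73 or AAV-V HFD array was left out, where the difference stayed between 1.36 and 1.47.

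Psma6 depended on the probe in another way. On the 3′ probe it read 4.52, 3.56 and 4.12 in AAV-V, 5.95, 6.52 and 6.49 in AAV-GP73 and 5.53, 6.09 and 6.19 with the HFD, and was called higher in both. On the 5′ probe, which all 9 arrays detected, it read 4.82, 4.68 and 5.02, then 4.91, 5.13 and 5.30, and 4.63, 4.76 and 5.33. These groups overlapped, and the log2 fold changes were 0.27 (adjusted p = 0.405) and 0.07 (adjusted p = 0.852). Psma2 and Psma7, detected on all 9 arrays, had log2 fold changes of 1.98 and 1.76 in AAV-GP73 and 1.70 and 1.54 with the HFD, and Psma1 was at least 2.09-fold and 1.83-fold higher.

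Of the 6 tested beta subunits, 4 were called higher in each comparison (33.2% and 24.8% of all genes tested), and 3 of the 6 (Psmb1, Psmb5 and Psmb7) were detected on no AAV-V array. Psmb6, which encodes a proteolytic subunit, read 4.95, 5.26 and 5.31 on the AAV-V arrays, 6.54, 7.09 and 7.24 in AAV-GP73 and 6.64, 7.09 and 7.05 with the HFD. The structural subunit Psmb3 read 5.21, 5.84 and 5.54, then 6.18, 6.79 and 7.03, and 6.24, 6.91 and 6.70. Psmb4, another structural subunit, read 4.36, 4.34 and 4.42, then 6.14, 6.25 and 6.60, and 5.93, 6.30 and 6.36. All 3 rose without overlap, with log2 fold changes of 1.78 ± 0.28, 1.13 ± 0.32 and 1.96 ± 0.26 (SE, n = 3) in AAV-GP73 and 1.75 ± 0.28, 1.09 ± 0.32 and 1.83 ± 0.26 with the HFD. Psmb3 lay near the fold limit and was not called when the arrays were centred on the median of the genes tested or with the deposited values. The other proteolytic subunits were dim, since no AAV-V array detected Psmb7 or Psmb5. Psmb7 was called higher in both comparisons, by at least 1.04-fold in each, and its AAV-GP73 arrays overlapped those of AAV-V. Psmb5 (adjusted p = 0.0511 and 0.109) and Psmb1 (adjusted p = 0.0212 and 0.0687, with a fold under 2) were not called, and Psmb1 read 3.96, 3.67 and 3.47 on the AAV-V arrays, 4.22, 4.72 and 4.52 in AAV-GP73 and 4.28, 4.32 and 4.30 with the HFD.

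**Figure D3:**
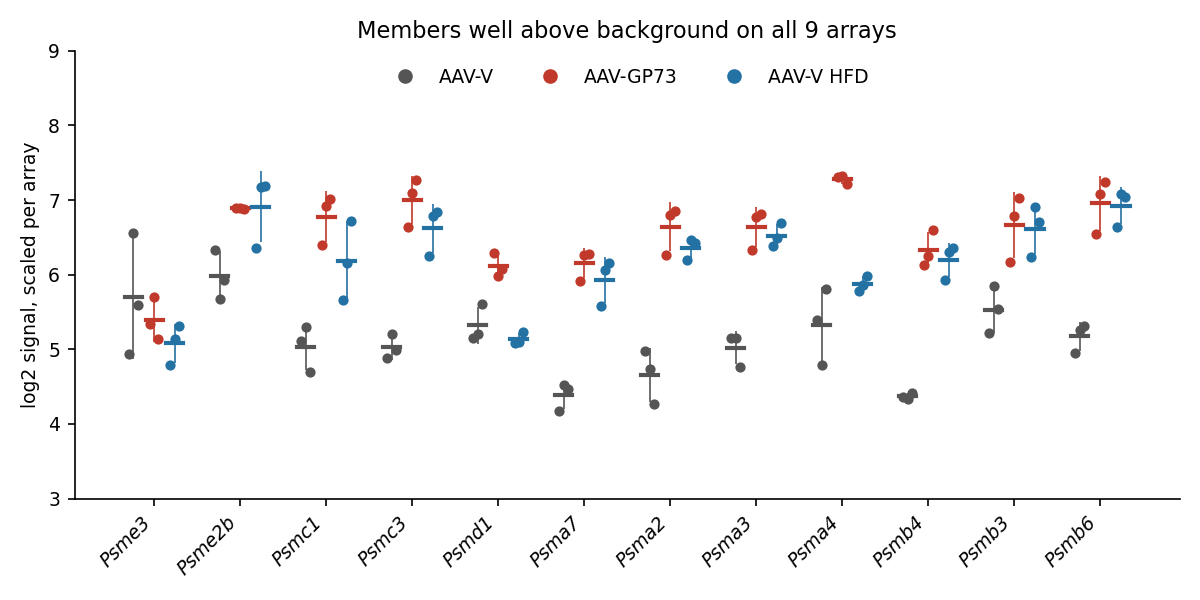
Scaled log2 signal of the 12 members detected on all 9 arrays, with a point per array, the group mean (horizontal bar) and the SD (vertical bar, n = 3). For 9 of the 12 the AAV-GP73 points were called higher than the AAV-V points, and Psma4 and Psmd1 are members in which AAV-V HFD lies near AAV-V.

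None of the 3 immunoproteasome genes was called in AAV-GP73 (Psmb8, Psmb9 and Psmb10, adjusted p = 0.0385, 0.992 and 0.0435, the first and last with a fold under 2), and Psmb8 and Psmb10 were called higher in AAV-V HFD. Psmb10 read 4.40, 3.70 and 4.18 on the AAV-V arrays, 5.04, 4.81 and 4.73 in AAV-GP73 and 4.99, 5.76 and 5.65 with the HFD, with log2 fold changes against AAV-V of 0.77 ± 0.30 and 1.37 ± 0.30 (SE, n = 3, adjusted p = 0.00325 in AAV-V HFD). Both groups were above AAV-V and overlapped each other.
Psmb8 read 1.53, 1.76 and 2.04 on the AAV-V arrays, where it was not well above background, 2.61, 3.02 and 2.09 in AAV-GP73 and 2.85, 3.35 and 3.01 with the HFD. Its level in AAV-V HFD did not exceed the lowest detectable level on the AAV-V arrays, so that no fold can be given for the call (adjusted p = 0.00475). Psmb9 read 3.47, 3.00 and 3.16 in AAV-V, not well above background, 3.33, 3.15 and 3.15 in AAV-GP73 and 3.58, 4.19 and 3.03 with the HFD, and its groups overlapped. Between AAV-GP73 and AAV-V HFD, where all 3 genes were detected on every array, the log2 differences were -0.49 ± 0.30, -0.40 ± 0.31 and -0.61 ± 0.30 (SE, n = 3), and none was called (adjusted p = 0.474, 0.583 and 0.356).

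Each immunoproteasome gene was set against the subunit it replaces, as the difference of their log2 levels on the same array, and compared between groups with an exact two-sided permutation test. Over the 9 comparisons no adjusted p was under 0.45, and 0.1 is the smallest p that 3 arrays against 3 allow. The widest gap was that of Psmb9 minus Psmb6, which was -1.97 ± 0.42 (SD, n = 3) in AAV-V, -3.75 ± 0.47 in AAV-GP73 and -3.32 ± 0.60 with the HFD (exact permutation p = 0.1 for both groups against AAV-V). The AAV-V arrays lay above the others without overlap, but Psmb9 was below detection there. Between AAV-GP73 and AAV-V HFD the differences were -0.69, -0.43 and -0.61 for Psmb8, Psmb9 and Psmb10 against their partners, lower in AAV-GP73 for each pair and with overlapping arrays (exact permutation p = 0.2, 0.3 and 0.3).

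**Figure D4:**
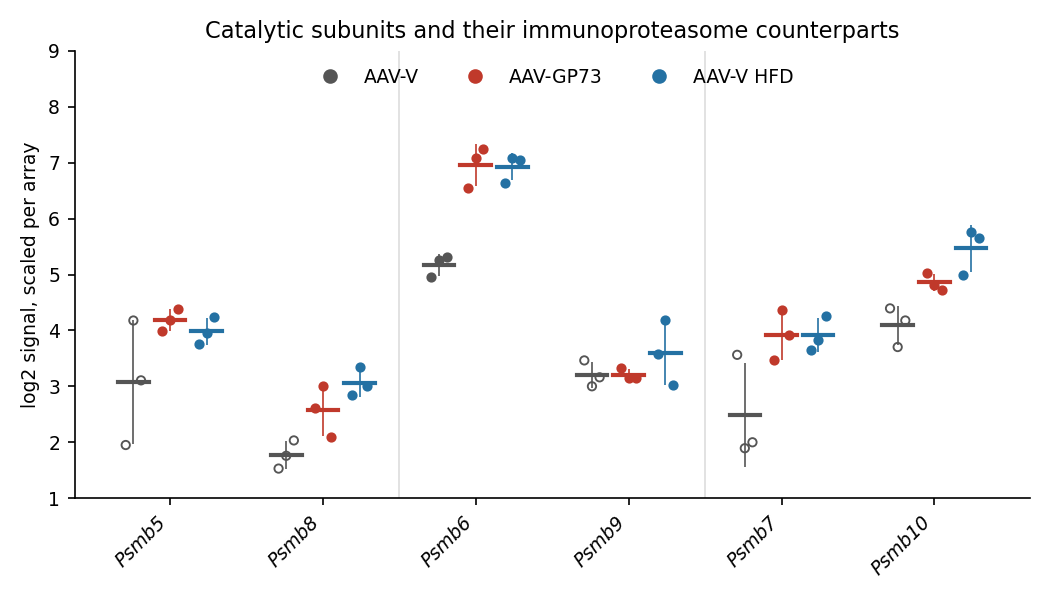
Scaled log2 signal of the proteolytic core subunits Psmb5, Psmb6 and Psmb7, each beside the immunoproteasome subunit that replaces it, with a point per array, the group mean and the SD (n = 3). Open points mark groups that did not detect the probe on all 3 arrays, and Psmb6 rises against AAV-V in both groups while Psmb9 overlaps between all 3 groups.

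Genes of interferon signalling and antigen processing, which share regulation with the immunoproteasome, were mostly dim. Of 11 genes on the array 5 were tested, and 2 were called higher in AAV-GP73 (33.2% of all genes tested) and 0 with the HFD (24.8%). Their median relative change was -0.34 and -0.38, from median log2 fold changes of 0.25 and -0.01. H2-K1, a class I heavy chain, changed by 0.02 and -0.01 and the transcription factor Irf1 by -0.76 and -0.69, and Tapbp, which loads peptides, was not called either. B2m, the light chain of class I molecules, read 6.65, 5.59 and 6.42 in AAV-V and 7.55, 7.20 and 7.06 in AAV-GP73 (log2 fold change 1.05 ± 0.40, SE, n = 3), and H2-D1, another heavy chain, detected on no AAV-V array, was at least 1.67-fold higher. The peptide transporter genes Tap1 and Tap2 and the regulators Nlrc5 and Irf8 were not well above background on all arrays of any group. Leukocyte and macrophage markers were counted beside these genes. Of 19, 8 were tested. Clec4f, of Kupffer cells, was called higher in AAV-GP73 (33.2% of all genes tested were), but no AAV-V array detected it and its least change was 1.01-fold. Cd4 was called lower in both groups, where 19.4% and 18.2% of all genes tested were. Its probe read 10.71, 11.32 and 11.75 in AAV-V, where the T cell gene Cd3e was detected on no array. Whether the Cd4 probe reads leukocytes was not tested. The log2 of the summed level of the 19 was 11.23 to 12.00 in AAV-V, 9.83 to 10.45 in AAV-GP73 and 10.31 to 10.95 with the HFD, most of it from the Cd4 probe. Cd5l, Lyz2, Itgam and Ms4a1 were detected on every array as well, and none of them was called. The leukocyte marker Ptprc and the lymphocyte markers Cd3g and Nkg7 were below detection on every array. Their part in the immunoproteasome levels was not tested.

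The ATPase ring of the cap was called higher for 4 of 6 genes in each comparison, where 33.2% and 24.8% of all genes tested were. Psmc2, Psmc5 and Psmc6 were detected on no AAV-V array, and Psmc2 and Psmc6 are among the 4. Psmc3 read 4.88, 5.20 and 5.00 in AAV-V, 6.65, 7.10 and 7.27 in AAV-GP73 and 6.25, 6.78 and 6.84 with the HFD, and Psmc1 read 5.11, 5.30 and 4.70, then 6.39, 6.92 and 7.02, and 5.66, 6.16 and 6.72. Neither overlapped AAV-V, with log2 fold changes of 1.98 ± 0.28 and 1.74 ± 0.33 (SE, n = 3) in AAV-GP73 and 1.59 ± 0.28 and 1.14 ± 0.33 with the HFD. A second probe of each was called higher in AAV-GP73 too, that of Psmc3 at the 5′ end by at least 1.58-fold, and that of Psmc1, which overlaps the first, by 1.62 on the log2 scale. With the HFD the second probe of Psmc1 was not called (0.99, adjusted p = 0.0591). Psmc2 read 1.66, 1.89 and 1.82 in AAV-V, below detection, 5.10, 5.38 and 5.78 in AAV-GP73 and 4.84, 5.07 and 4.81 with the HFD. It was at least 2.95-fold (adjusted p = 8.09e-06) and 2.07-fold higher (adjusted p = 8.76e-05), and Psmc6 at least 2.91-fold and 2.28-fold.

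Psmc4 was the exception among the ATPases. Its brightest probe, the 5′ one, read 4.27, 4.22 and 5.06 in AAV-V, 3.71, 3.93 and 3.67 in AAV-GP73 and 3.33, 3.22 and 3.31 with the HFD, with log2 fold changes of -0.75 ± 0.29 (SE, n = 3, adjusted p = 0.0388) and -1.23 ± 0.29 (SE, n = 3, adjusted p = 0.00439), so that it was called lower in AAV-V HFD. Its 3′ probe read 1.84, 2.56 and 2.01, below detection, then 3.64, 3.98 and 4.11, and 3.22, 4.14 and 3.85, and was called higher in both. The direction of Psmc4 is therefore not settled by these arrays. It also turned with spike-in scaling, to 0.93 and 0.10, and without AAV-V replicate 3 the fall in AAV-V HFD was 0.97 and not called. Psmc5 was not called in either comparison.

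Of the 11 non-ATPase subunits of the cap, 9 were called higher in AAV-GP73 (33.2% of all genes tested) and 8 with the HFD (24.8%). These counts are a description, since 9 of the 11 were detected on no AAV-V array and the sizes of their changes are not known. Only Psmd1 and, on 2 of 3 AAV-V arrays, Psmd4 were detected in AAV-V. Psmd4, a ubiquitin receptor of the cap, read 3.56, 4.23 and 4.74 in AAV-V, 5.92, 6.48 and 6.88 in AAV-GP73 and 5.80, 5.99 and 5.66 with the HFD on its 3′ probe, with log2 fold changes of 2.25 ± 0.35 (SE, n = 3, adjusted p = 0.000303) and 1.64 ± 0.35 (SE, n = 3, adjusted p = 0.00288). Its 5′ probe read 4.43, 4.35 and 3.12, then 3.88, 3.80 and 4.26, and 3.66, 3.27 and 3.81, with overlapping groups and changes of 0.01 and -0.39. Psmd1, a scaffold of the cap, showed the same contrast. Its brightest probe, the 5′ one, read 5.15, 5.21 and 5.61 in AAV-V, 6.29, 5.99 and 6.07 in AAV-GP73 and 5.08, 5.10 and 5.23 with the HFD, and was not called against AAV-V or between AAV-GP73 and AAV-V HFD, where the difference was 0.98 ± 0.25 (SE, n = 3, adjusted p = 0.0685). Its 3′ probe read 1.61, 1.74 and 1.78, below detection, then 4.58, 4.60 and 4.45, and 3.32, 4.38 and 4.42, at least 1.61-fold and 1.14-fold higher.

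Least changes against AAV-V were computed only for subunits that no AAV-V array detected. Psmd3, of the lid of the cap, read 3.05, 1.55 and 3.66 in AAV-V, 5.22, 6.05 and 5.74 in AAV-GP73 and 5.18, 5.89 and 5.42 with the HFD, at least 3.51-fold and 3.11-fold higher (adjusted p = 0.000361 and 0.000975). Psmd12 was at least 3.90-fold and 2.69-fold higher, and Psmd6 read 2.72, 2.64 and 1.77, then 5.09, 5.64 and 5.41, and 4.45, 4.89 and 5.41, at least 2.87-fold and 2.09-fold higher on its 3′ probe. The 5′ probe of Psmd6 was not called. Psmd8 read 2.69, 3.23 and 2.74, then 3.03, 3.38 and 3.30, and 3.29, 3.26 and 3.84, and was called in neither comparison. Psmd11 was detected on the AAV-GP73 arrays only, at 3.47, 3.83 and 3.68, and was at least 2.29-fold higher than in AAV-V HFD without passing the test (adjusted p = 0.0538). Psmd14, which encodes the deubiquitinase of the lid, and Psmd2, Psmd7 and Psmd13 were called higher in both comparisons.

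Among the chaperones that assemble the core and the cap, 2 of 7 were tested. Psmg1 read 1.88, 1.71 and 2.96 in AAV-V, below detection, 3.86, 3.99 and 4.01 in AAV-GP73 and 3.69, 4.50 and 4.05 with the HFD, at least 1.07-fold and 1.17-fold higher (adjusted p = 0.00126 and 0.00146). Its partner Psmg2 read 3.71, 3.87 and 4.28, then 2.67, 2.20 and 2.93, and 2.75, 2.87 and 3.52, lower than AAV-V without overlap in both groups, and was called in AAV-GP73 (log2 fold change -1.35 ± 0.31, SE, n = 3, adjusted p = 0.00309) but not in AAV-V HFD (-0.91 ± 0.31, adjusted p = 0.0289, with a fold under 2). Psmg2 was well above background on 1 AAV-V array and 2 AAV-GP73 arrays, and with spike-in scaling its change in AAV-GP73 was 0.33. Psmd10, a chaperone of the ATPase ring, was detected on 2 AAV-GP73 arrays and 1 AAV-V HFD array.

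Of the other activators, Psme1 and Psme4 were called higher in AAV-GP73 and Psme4 in AAV-V HFD. Psme1, a subunit of the interferon-induced activator, read 3.60, 3.90 and 4.54 in AAV-V, 4.99, 5.48 and 5.42 in AAV-GP73 and 4.63, 5.12 and 5.18 with the HFD, above AAV-V without overlap, with log2 fold changes of 1.28 ± 0.31 (SE, n = 3, adjusted p = 0.00432) and 0.96 ± 0.31 (adjusted p = 0.023, with a fold under 2). Psme4, a large nuclear activator, read 3.54, 2.55 and 1.94, below detection, then 4.10, 4.80 and 5.24, and 4.28, 4.81 and 4.54, at least 1.81-fold and 1.61-fold higher.
Psme3, an activator found in the nucleus, read 4.93, 6.56 and 5.60 in AAV-V, 5.34, 5.70 and 5.13 in AAV-GP73 and 4.79, 5.14 and 5.31 with the HFD, and its groups overlapped (adjusted p = 0.498 and 0.192). Psme2b read 6.33, 5.67 and 5.93, then 6.90, 6.89 and 6.88, and 6.36, 7.18 and 7.19, a change under 2-fold in both groups, while its 5′ probe changed by -0.64 and -0.84. Psme2b resembles Psme2 in sequence, so that the transcript read by these probes is uncertain. Psmf1, which encodes an inhibitor of the core, stayed between 0.53 and 1.96 on all 9 arrays and was not detected on any.

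Genes that work with the proteasome were read from fixed lists in the same fit. Of 8 tested genes of core maturation and cap-associated proteins, AAV-GP73 had 5 called higher (Pomp, Uchl5, Txnl1, Akirin2 and Zfand5) and 2 lower, and AAV-V HFD had 3 higher (Pomp, Txnl1 and Shfm1) and 1 lower. The shares over all genes tested were 33.2% higher and 19.4% lower for AAV-GP73 and 24.8% and 18.2% for the HFD. Uchl5, Txnl1, Akirin2 and Zfand5 were detected on no AAV-V array and entered through the groups where they were bright. Pomp, which guides the maturation of the core, read 6.31, 5.74 and 5.60 in AAV-V, 7.13, 7.26 and 7.66 in AAV-GP73 and 7.56, 7.82 and 7.67 with the HFD, with log2 fold changes of 1.47 ± 0.28 and 1.80 ± 0.28 (SE, n = 3). Adrm1, a ubiquitin receptor, and Usp14, a deubiquitinase, both bind the cap and went the other way. Adrm1 read 6.19, 5.79 and 6.48, then 5.28, 4.92 and 4.77, and 5.14, 4.83 and 5.43, and was called lower in both groups (-1.16 ± 0.29 and -1.02 ± 0.29), and Usp14 was called lower in AAV-GP73 (adjusted p = 0.00519) and not in AAV-V HFD (-0.94 ± 0.25, with a fold under 2).

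Nfe2l1, the transcription factor that raises proteasome genes when the proteasome falls short, read 4.04, 2.03 and 1.87 in AAV-V, 4.36, 4.48 and 4.72 in AAV-GP73 and 3.65, 4.54 and 3.81 with the HFD. It was called higher in both groups (log2 fold change 1.87 ± 0.50 and 1.35 ± 0.50, SE, n = 3, adjusted p = 0.00687 and 0.038), with AAV-V replicate 1 overlapping AAV-V HFD. Nfe2l1 was well above background on only 1 AAV-V array, so that the sizes of its changes are uncertain. Ddi2, the protease that activates it, was detected on the AAV-GP73 arrays only, at 2.90, 3.53 and 3.00, and was at least 1.68-fold higher there than in AAV-V HFD. Of 12 tested genes for ubiquitin, its activation and its delivery, 6 were called higher in each comparison (33.2% and 24.8% of all genes tested), of which 4 in AAV-GP73 and 3 with the HFD were detected on no AAV-V array. Ubb, a polyubiquitin gene, read 7.27, 6.93 and 7.33 in AAV-V, 9.10, 9.51 and 9.53 in AAV-GP73 and 8.61, 9.07 and 8.99 with the HFD. Rad23b, which carries ubiquitinated proteins to the cap, was at least 3.13-fold and 2.20-fold higher.

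Hepatocyte markers were read beside the members, since most liver RNA comes from these cells. All 8 were tested, and the log2 of their summed level was 14.05 to 14.67 in AAV-V, 14.04 to 14.47 in AAV-GP73 and 13.40 to 14.03 with the HFD. Of the 8, Tat and Cyp2e1 were called higher and Cps1 lower in AAV-GP73, and Cyp2e1 higher and Cps1 lower in AAV-V HFD. Over all genes tested, 33.2% and 24.8% were called higher and 19.4% and 18.2% lower. The median log2 fold change of the 8 was 0.09 and -0.52, against 1.75 and 1.32 for the 12 members detected on all 9 arrays. Their median relative change was -0.51 and -0.89, against 1.16 and 0.95. Of the genes tested that set this reference, 37.8% were detected on no AAV-V array. A negative relative change is therefore not in itself a fall. Of the 12 endothelial, stellate and cholangiocyte markers, 2 were tested, Clec4g and Des. Clec4g was called higher in AAV-GP73 (33.2% of all genes tested were), but no AAV-V array detected it and its least change was 1.50-fold. Des was called lower in both groups, where 19.4% and 18.2% of all genes tested were. The log2 of the summed level of the 12 was 6.91 to 7.97 in AAV-V, 5.86 to 6.57 in AAV-GP73 and 5.24 to 5.93 with the HFD. In these groups 10, 7 and 8 of the 12 were detected on no array. The sum thus holds undetected signals, and its differences do not measure these cells. The part of cell composition in the members' levels was not tested.

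All members with a RefSeq promoter, called or not, were searched for 3 motifs. The first was TGACNNNGC, the core of the element bound by Nfe2l1, read on both strands around the gene start in the RefSeq promoters of GRCm38.p6. It was found in 4 of 25 core and cap promoters (16%), in 6 of 40 members' promoters (15%) and in 12.5% of all 27025 promoters. It was found in 0 of 3 immunoproteasome promoters. A short form of the interferon-stimulated response element was found in 5 of 40 members' promoters (12.5%), in 0 of 3 of the immunoproteasome and in 3.49% of all, and CCAAT, the box bound by NF-Y, in 14 of 40 (35%) and in 37.9% of all. The 4 core and cap matches of TGACNNNGC are printed with the motif in capitals, and the numbers that follow a gene name give the place of the stretch.
Psmb5, chr14:54618018-54618058, - strand: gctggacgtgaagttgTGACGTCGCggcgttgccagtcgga
Psmb6, chr11:70525332-70525356, + strand: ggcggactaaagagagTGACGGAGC
Psmc6, chr14:45329581-45329621, + strand: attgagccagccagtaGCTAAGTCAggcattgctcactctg
Psmd12, chr11:107479278-107479305, + strand: tctGCTGTGTCAcatttgcccccctcag
The matches lay 9 to 247 bases before the gene start. Of these 4 genes Psmb6, Psmc6 and Psmd12 were called higher in both comparisons and Psmb5 in neither, and genes without the motif, such as Psma3 and Psmc2, were called higher as well.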

How the data were processed

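Trizol was used to isolate total RNA from frozen liver. A low input kit, whose primer binds the poly(A) tail, amplified it with Cy3, and it was read on 9 one-colour arrays of 60-base probes. Each deposited intensity is Feature Extraction output (12.0.3.1 in the file headers, 10.7 in the submitters' processing notes, which also name limma), with the background subtracted within each array and no scaling between arrays. The authors also deposited a table of log2 expression, whose normalization is not given in the sources used here. Gene names and mm9 places are those of the files.

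Calculations used R 4.3.3 and limma 3.58.1. Spots with a quality mark (98 to 151 per array) were left out, 0 were saturated, and spots of a probe were averaged on the log2 scale. At most 18.4% of spots were detected, so that scaling used the 75th percentile of those 2666 probes well above background on all 9 arrays, with the 75th percentile of all probes as an alternative. All 3 groups were fitted together by lmFit and eBayes, with Benjamini-Hochberg adjustment over all 5761 genes tested. For a least fold change, an undetected probe was given the dimmest detected signal of its array, or its own where that was brighter. Values on every array were given for the 2 brightest tested members of each class, those with the largest and smallest change in it, all immunoproteasome and Psme genes, Psmf1, and members called lower or between AAV-GP73 and AAV-V HFD. Psma6, Psmb5, Psmb7, Psmc6, Psmd11, Psmd12 and the other members named were chosen after their values were seen. Members and lists were chosen with earlier results of these data known. The comparison of 3′ and 5′ probes, and of the pathway genes named, was chosen after seeing the values. On simulated data with known changes the fit missed part of the smaller ones, so that a gene not called may still differ. The number of arrays limits the precision. Promoters of 8 members were not analysed here. Some genes of the lists are not reported here.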

Additional observations from a re-analysis of the deposited data

How the results depend on the processing

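In the alternatives that only rescaled the arrays, 26 to 37 members were called higher in AAV-GP73 and 25 to 36 in AAV-V HFD, and the median relative change was the same under every shift and 1.16 and 1.03 with quantile normalization. Against AAV-V, 0 members were called lower in either comparison with the 75th percentile of all probes and with spike-in scaling, and in AAV-V HFD 2 were (Psmc4 and Psmg2) after centring on the genes tested. The share of higher among all called genes was 63.1% and 57.7%, and reached 90.3% and 94.7% with the 75th percentile of all probes and 98.1% and 98.1% with spike-in scaling, and was 40.8% and 43.2% with normexp. With the 75th percentile of all probes the log2 fold change turned positive for Psmc4 (0.24) and Psme3 (0.69) in AAV-GP73 and for Psmd1 (0.77), Psme3 (0.34) and Psmg2 (0.045) in AAV-V HFD. With spike-in scaling it turned for Psmc4 (0.93), Psme3 (1.38) and Psmg2 (0.33) in AAV-GP73 and for Psmc4 (0.10), Psmd1 (1.15), Psme3 (0.72) and Psmg2 (0.43) in AAV-V HFD. With normexp 2 and 0 members were called higher and 0 lower against AAV-V, and the median relative change was 0.27 and 0.27. Without a filter 5 members were called lower in each comparison, of which 4 had failed the filter (Psma8, Psmb11 and Psmd9 in both, Psmc3ip in AAV-GP73 and Psmd5 in AAV-V HFD). The median relative changes were 2.97 and 2.55, taken against the median of the unfiltered genes. With detection on all 9 arrays 9 and 8 members were called higher and 0 lower. Against the median of the genes detected in that way, the median relative change was 1.94 and 1.68. Against the median of all genes tested, it was 1.16 and 0.95 for the same 12 members. With the mean of the probes, Psmc4 changed by 0.51 and 0.18 and Psmd1 by 1.07 in AAV-V HFD, where 0 members were called lower. With the 3′-most or 5′-most probe, chosen after seeing the data, results differed. With the 3′-most probe, Psmc4 changed by 1.77 and 1.60 and Psmd1 by 2.34 in AAV-V HFD, and 0 members were called lower there. With the 5′-most probe the median in AAV-GP73 was 0.81, Psme2b changed by -0.64 and -0.84, Psmd4 by -0.39 in AAV-V HFD, and 24 members were called higher in each comparison. With no limit on fold 2 members were called lower in each comparison. Between AAV-GP73 and AAV-V HFD, Psma4 was not called (0 members) with quantile normalization, normexp, the deposited values, no filter, the mean, 3′-most or 5′-most probe and the replicate block, 3 members were called with spike-in scaling and 2 with the 2 groups alone or the methods' t-test without adjustment. Psmb8 minus Psmb5 turned to 0.31 with quantile normalization and 0.42 with the deposited values in AAV-GP73, and to -0.10 with normexp in AAV-V HFD. Psmb10 minus Psmb7 turned to 0.038 and 0.28 with normexp. The cause of these changes was not tested.

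Leaving out each array gave 26 to 28 and 23 to 28 members called higher and 1 to 1 and 0 to 2 called lower against AAV-V, medians of 1.03 to 1.20 and 0.93 to 1.19, and 0 to 2 members called higher between AAV-GP73 and AAV-V HFD. Psmb8 minus Psmb5 lay between -0.86 and 0.14, -0.17 and 0.83, and -0.91 and -0.36 in the 3 comparisons, and Psmb10 minus Psmb7 between -1.05 and -0.38, -0.44 and 0.23, and -0.92 and -0.36. Psmb9 minus Psmb6 stayed below 0 in all. Psme3 in AAV-GP73 lay between -0.69 without AAV-V replicate 1 and 0.11 without AAV-V replicate 2. Replicate numbers are shared between groups, and residuals of equal numbers correlated above 0.1 in 2 of 9 pairs (-0.12 to 0.17). With 3 arrays per group these correlations cannot show whether equal numbers share more than the number. With the replicate block 28 and 26 members were called higher against AAV-V, and 0 between AAV-GP73 and AAV-V HFD.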
